A study of Mus musculus with 6 samples.

Results

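The major histocompatibility complex (MHC) genes of the mouse carry the prefix H2. The 51 genes described here are all genes whose symbol begins with H2-, apart from 4 whose symbol contains -ps, together with B2m, Tap1, Tap2, Tapbp, Psmb8, Psmb9, Psmb10, Nlrc5, Ciita and Cd74. They were chosen by symbol from the 55471 gene identifiers of the count tables, 41 by prefix and 10 by name, by a rule on symbols alone, and 46 of them lie on chromosome 17. RNA-seq libraries came from mouse epiblast stem cells, a pluripotent cell type of the early post-implantation embryo, after 2 days of differentiation in serum as embryoid bodies. The induced group held 3 libraries labelled Mixl1 induced D1Dox, from lines with inducible Mixl1 given 1 µg/mL doxycycline over the final 24 h. The knockout group held 3 libraries labelled Mixl1 KO. Both groups came from cultures kept on irradiated embryonic fibroblasts in medium with 10 ng/mL bFGF plus 20 ng/mL Activin A, and were aggregated in microwells for 24 h. The labels do not say whether the knockout cells received doxycycline, whether the lines share a parent, whether the inducible lines also lack the native gene, how many clones were used, or which mouse strain they came from. MHC sequences differ between strains, and all reads were counted on 1 reference genome. The samples are called triplicates, with no word on separate cultures. A p-value here therefore refers to the spread among these samples, which may be only technical.

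MHC class I molecules consist of a heavy chain, a light chain (B2m) and a short peptide, and display fragments of a cell's own proteins to cytotoxic T cells and natural killer cells. The proteasome cuts the peptides, the TAP transporter carries them into the endoplasmic reticulum, and tapasin (Tapbp) holds the empty class I molecule beside the transporter. MHC class II molecules, found mainly on dendritic cells, B cells and macrophages, display peptides from endocytosed protein. The invariant chain Cd74 guards their groove until H2-DM exchanges its remnant for a peptide. Interferon raises most of these genes through IRF1 and through the transactivators NLRC5 (class I) and CIITA (class II). Embryonic and pluripotent cells are known for low class I expression.

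Class I promoters carry short sequences that transcription factors recognise. The 4 shown first are those of H2-K1, H2-D1, H2-Q6 and H2-Q7, because their sequences are close to each other while the genes fell on both sides of the test described further on. Each sequence is the 250 bases before the transcription start in RefSeq (build GRCm38.p6), written 5′ to 3′ on the strand of the gene. Capitals mark 3 motifs: an interferon-response-like motif GAANNGAAA, the X2 motif TGACG and the inverted CCAAT box ATTGG. Each was searched on both strands, and no match overlapped another. The motifs were picked with these sequences in view, and a match describes letters, not binding. The windows are chr17:34000348-34000597 (minus strand) for H2-K1, chr17:35262844-35263093 (plus strand) for H2-D1, chr17:35424600-35424849 (plus strand) for H2-Q6 and chr17:35438905-35439154 (plus strand) for H2-Q7. The H2-D1 window lies inside the gene as annotated in GENCODE M21, which starts at 35262730.
H2-K1: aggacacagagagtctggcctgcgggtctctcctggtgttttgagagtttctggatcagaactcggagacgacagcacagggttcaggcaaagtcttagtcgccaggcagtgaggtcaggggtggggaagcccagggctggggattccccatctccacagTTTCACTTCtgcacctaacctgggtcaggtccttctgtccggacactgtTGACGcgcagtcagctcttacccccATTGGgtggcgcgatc
H2-D1: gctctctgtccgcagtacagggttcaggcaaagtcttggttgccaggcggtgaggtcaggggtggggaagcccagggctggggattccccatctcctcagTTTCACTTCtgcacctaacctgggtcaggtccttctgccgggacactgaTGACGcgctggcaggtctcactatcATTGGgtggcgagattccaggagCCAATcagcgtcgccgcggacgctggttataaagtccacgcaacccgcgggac
H2-Q6: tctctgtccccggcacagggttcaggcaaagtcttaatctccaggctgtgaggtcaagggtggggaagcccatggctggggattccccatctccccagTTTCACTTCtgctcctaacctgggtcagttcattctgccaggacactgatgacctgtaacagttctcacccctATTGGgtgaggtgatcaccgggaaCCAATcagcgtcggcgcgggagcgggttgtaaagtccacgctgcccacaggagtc
H2-Q7: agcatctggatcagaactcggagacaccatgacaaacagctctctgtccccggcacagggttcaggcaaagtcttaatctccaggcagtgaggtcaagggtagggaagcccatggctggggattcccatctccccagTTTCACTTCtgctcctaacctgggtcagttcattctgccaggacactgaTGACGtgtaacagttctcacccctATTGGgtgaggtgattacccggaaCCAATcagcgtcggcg

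All 3 motifs stood in the windows of H2-K1, H2-D1 and H2-Q7, and the H2-Q6 window lacked the X2 motif as spelled here. Windows were available for 37 of the 51 genes. The interferon-response-like motif was in 6.31% of the 32851 promoter windows of the genome and in 8 of the 37, the X2 motif in 17.8% and in 15, and the inverted CCAAT box in 33.8% and in 31. All 3 motifs together occurred in 100 windows of the genome (0.304%) and in 6 of the 37, those of H2-K1, H2-D1, H2-Q7, H2-Q4, H2-M2 and H2-M3. Over the aligned bases, the H2-K1 and H2-D1 windows were 87.4% identical, and those of H2-Q6 and H2-Q7 were 97.6% identical.

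The windows of B2m, Tap1 and Psmb8 are given for contrast, since of these genes of the same pathway B2m was higher, Psmb8 lower and Tap1 did not pass. They are chr2:122147437-122147686 (plus strand) for B2m, chr17:34187306-34187555 (plus strand) for Tap1 and chr17:34197945-34198194 (plus strand) for Psmb8. The Psmb8 window lies inside the gene as annotated in GENCODE M21, which starts at 34197721. It therefore does not show the bases before that start. The B2m and Tap1 windows each hold the X2 motif and a CCAAT box, and none of the 3 motifs as spelled here was found in that of Psmb8. The B2m window also holds gaaactgaaa, a run like the interferon-response-like motif but with a different spacing, which the search did not take. A window without a match may therefore still hold a variant of a motif. Tap1 and Psmb9 lie head to head in RefSeq. Their promoter entries, which run from 250 bases before to 50 after each start, share 275 bases on opposite strands. The RefSeq starts are 226 bases apart. As annotated in GENCODE M21 the genes overlap, with Tap1 starting at 34187553 and Psmb9, on the minus strand, reaching 34187764.
B2m: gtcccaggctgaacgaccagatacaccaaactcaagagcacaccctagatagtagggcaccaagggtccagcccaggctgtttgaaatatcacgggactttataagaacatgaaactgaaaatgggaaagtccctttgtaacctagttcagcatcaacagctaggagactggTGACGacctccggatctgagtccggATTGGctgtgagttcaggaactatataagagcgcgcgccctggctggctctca
Tap1: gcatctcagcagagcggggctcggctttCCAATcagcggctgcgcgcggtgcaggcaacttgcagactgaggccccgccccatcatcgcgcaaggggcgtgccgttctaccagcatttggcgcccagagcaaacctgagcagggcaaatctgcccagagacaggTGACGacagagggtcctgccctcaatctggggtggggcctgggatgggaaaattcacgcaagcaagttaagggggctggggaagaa
Psmb8: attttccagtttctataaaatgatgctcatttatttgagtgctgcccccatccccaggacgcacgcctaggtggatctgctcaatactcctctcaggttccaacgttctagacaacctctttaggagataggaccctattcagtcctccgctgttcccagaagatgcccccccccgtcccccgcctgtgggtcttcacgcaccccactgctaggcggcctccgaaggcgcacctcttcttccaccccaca

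Gene reads per library ranged from 17490426 to 21026423, of which the 51 genes took 0.0703% to 0.0775% in induced libraries and 0.0737% to 0.0831% in knockout libraries. Levels are given in CPM, the reads of a gene per 1e6 reads of the normalised library size. Differences are log2 fold changes of induced over knockout libraries from edgeR's quasi-likelihood test across all genes, called at a Benjamini-Hochberg adjusted p under 0.05. Mixl1, the homeobox gene that the study altered, had 427.2, 441.1 and 429.2 CPM in induced libraries and 39.9, 36.8 and 42.7 CPM in knockout libraries (log2 fold change 3.44, SE 0.055, adjusted p = 1.66e-22 by edgeR's quasi-likelihood test). Since the labels name no altered exon, this count does not check the knockout allele. Across the genome 62.6% of the 15091 tested genes were called, 31% higher and 31.6% lower, and induced and knockout libraries did not overlap for 67.1%.

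Of the 51 MHC and antigen processing genes, 30 had enough reads to be tested and 15 of these (50%) were called, against 62.6% of all tested genes. In induced libraries 7 were higher and 8 lower, with a median log2 fold change over the 30 of −0.04, against 0.00 over all tested genes. The groups did not overlap for 18 of the 30 (60%). The genes that were higher were H2-D1, B2m, H2-Q6, H2-Q7, H2-Ab1, H2-Eb1 and H2-DMb1, which encode chains of class I molecules, of class II molecules or of the class II exchange factor. The genes that were lower were Tapbp, Tap2, Psmb8, Psmb10, Nlrc5, Cd74, H2-Bl and H2-T10. Of the 21 untested genes, 10 had no read in any library. In bulk libraries, fewer cells of a type and less RNA per cell cannot be told apart.

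**Figure D1:**
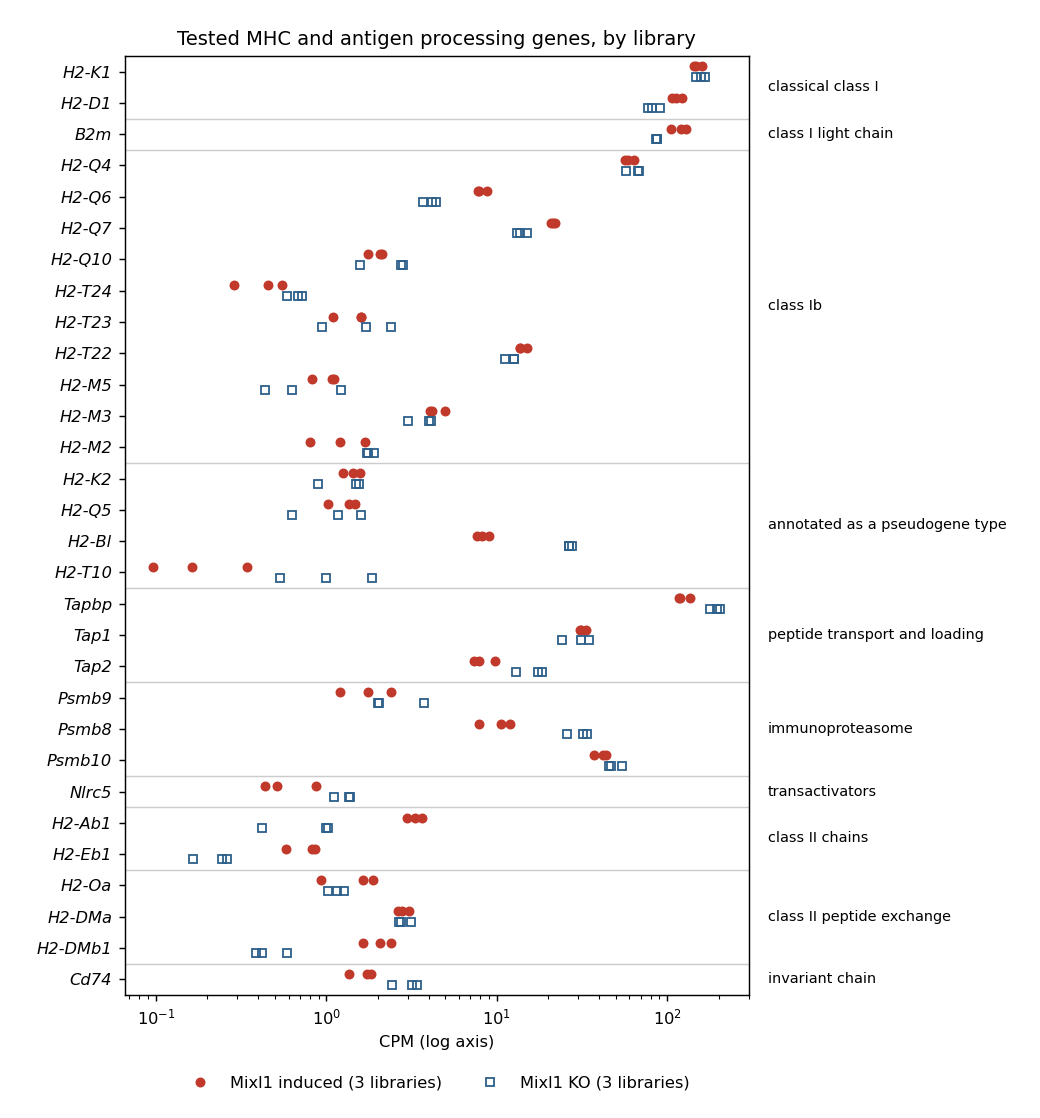
Level of each of the 30 tested genes in each of the 6 libraries, in CPM on a log axis, with filled red circles for Mixl1 induced and open blue squares for Mixl1 KO libraries. H2-K1, Tapbp, H2-D1 and B2m are the most abundant, from 76.8 to 205.2 CPM, while every class II gene lies below 4 CPM in every library.

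H2-K1 and H2-D1, the classical class I heavy chains that present peptides to cytotoxic T cells, were the most abundant heavy chains in both groups, and H2-D1 was higher in induced libraries. H2-D1 had 122.7, 112.9 and 107.0 CPM in induced libraries and 81.8, 91.3 and 76.8 CPM in knockout libraries. Every induced library lay above every knockout library, and H2-D1 rose by 0.46 on the log2 scale (SE 0.062, adjusted p = 3.02e-06 by edgeR's quasi-likelihood test). H2-K1 had 160.7, 147.3 and 144.4 CPM in induced libraries and 167.5, 157.8 and 147.7 CPM in knockout libraries. Those ranges overlapped, and the log2 fold change of −0.06 (95% interval −0.17 to 0.04) had an adjusted p of 0.303 by edgeR's quasi-likelihood test.

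B2m, the light chain that class I heavy chains need to reach the surface, had 128.0, 120.4 and 105.5 CPM in induced libraries and 87.7, 86.4 and 87.2 CPM in knockout libraries. The knockout libraries lay within a narrow band and all induced libraries lay above it. The log2 fold change was 0.44 (SE 0.059, adjusted p = 1.50e-06 by edgeR's quasi-likelihood test).

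Per kilobase of exon, H2-K1 averaged 51.3 CPM per kb in induced and 53.7 in knockout libraries, H2-D1 averaged 44.3 in induced and 32.3 in knockout libraries, and B2m averaged 137 in induced and 101 in knockout libraries. The ratio of H2-K1 to H2-D1 per kilobase was 1.16 ± 0.021 in induced libraries and 1.67 ± 0.141 in knockout libraries (SD, n = 3 each), with no overlap between the groups. An exact two-sided permutation test on this ratio gave p = 0.1, the smallest that 3 against 3 libraries allow, and the ratio was chosen after the values were seen. B2m over a sum of heavy chain genes, also chosen after the values were seen, was 0.953 ± 0.0656 per kilobase in induced and 0.710 ± 0.0464 in knockout libraries (SD, n = 3 each). The sum took in the classical and class Ib genes and the 7 members typed as pseudogenes. Among these H2-Bl alone held 3.43% of the sum in induced and 11.2% in knockout libraries, so its difference enters the ratio. In that sum H2-K1 held 35.7% of the heavy chain level in induced and 37.5% in knockout libraries, and H2-D1 held 30.8% in induced and 22.6% in knockout libraries.

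The non-classical class I (class Ib) genes are the largest group, with 22 members of which 10 were tested and 2 called, both higher. Over all tested genes 62.6% were called and 31% were higher. H2-Q6 and H2-Q7 encode Qa-2 antigens, which are displayed on early mouse embryos as well as on lymphocytes. H2-Q6 had 7.71, 8.74 and 7.86 CPM in induced libraries and 4.15, 4.41 and 3.68 CPM in knockout libraries. H2-Q7 had 21.5, 20.7 and 22.005 CPM in induced libraries and 15.1, 13.2 and 13.6 CPM in knockout libraries. For both genes all induced libraries lay above all knockout libraries, with log2 fold changes of 0.99 for H2-Q6 (SE 0.14, adjusted p = 1.54e-06) and 0.61 for H2-Q7 (SE 0.085, adjusted p = 1.81e-06) by edgeR's quasi-likelihood test. Of the 50-base fragments of the H2-Q6 transcripts, 32% also occur in another gene, as do 26.4% of those of H2-Q7. Reads that map to more than 1 place were not counted, so the split between these genes is uncertain.

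The other 8 tested class Ib genes did not pass. H2-Q4 was the most abundant of them, with 64.0, 56.9 and 58.8 CPM in induced libraries and 67.9, 67.3 and 57.6 CPM in knockout libraries. Its ranges overlapped (log2 fold change −0.10, adjusted p = 0.187 by edgeR's quasi-likelihood test), and without knockout replicate 3 it passed (−0.18, adjusted p = 0.0153). H2-T22, a ligand of some gamma delta T cells, had 13.6, 13.8 and 15.1 CPM in induced libraries and 12.6, 11.1 and 12.7 CPM in knockout libraries. The groups did not overlap, but the log2 fold change of 0.22 (SE 0.097) had an adjusted p of 0.0532 by edgeR's quasi-likelihood test, and of 0.0421 without knockout replicate 3. Of the 50-base fragments of H2-T22, 34.5% also occur in another gene, as do 21.8% of those of H2-Q4. The counts of H2-T22 and H2-Q4 are uncertain for this reason too. H2-M3, which presents N-formylated peptides of bacteria and mitochondria, averaged 4.40 CPM in induced and 3.71 CPM in knockout libraries (log2 fold change 0.24).

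H2-T23, which encodes Qa-1 and is read by an inhibitory receptor of natural killer cells, averaged 1.43 CPM in induced and 1.68 CPM in knockout libraries (log2 fold change −0.24). Without knockout replicate 1 its log2 fold change was 0.10. H2-Q10, H2-T24, H2-M5 and H2-M2 averaged between 0.431 and 1.98 CPM in induced and between 0.662 and 2.37 CPM in knockout libraries. Their log2 fold changes were −0.26, −0.63, 0.42 and −0.54 in that order, and the 95% interval of each except H2-M2 spanned 0. The unadjusted p of H2-M2 was 0.0520 (adjusted p = 0.0790) by edgeR's quasi-likelihood test. Its interval is thus narrower than that test implies. H2-M5 passed without knockout replicate 2 (0.91, adjusted p = 0.0472) and H2-M2 without induced replicate 3 (−0.83, adjusted p = 0.0199), both by edgeR's quasi-likelihood test.

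Among the 7 members that the annotation types as pseudogenes, 4 were tested and 2 were called, both lower in induced libraries. Over all tested genes 62.6% were called and 31.6% were lower. H2-Bl, H2-T10 and H2-Q5 have the annotated type polymorphic pseudogene, and the labels do not give the strain of these cells. H2-Bl had 7.67, 8.17 and 9.01 CPM in induced libraries and 27.6, 26.4 and 26.4 CPM in knockout libraries. The groups lay far apart, with a log2 fold change of −1.70 (SE 0.090, adjusted p = 2.90e-13 by edgeR's quasi-likelihood test), the smallest adjusted p of the 30 tested members. Its share of the heavy chain level per kilobase was 3.43% in induced libraries and 11.2% in knockout libraries. H2-T10, a close relative of H2-T22, had 2, 6 and 3 reads in induced libraries and 11, 18 and 35 reads in knockout libraries. All induced libraries lay below all knockout libraries, which themselves spread widely, and the log2 fold change was −2.48 (SE 0.53, adjusted p = 5.16e-04 by edgeR's quasi-likelihood test). Without knockout replicate 3 H2-T10 did not reach the filter on low counts, and 31.7% of its 50-base fragments are shared with H2-T22. H2-K2 and H2-Q5 missed the threshold at log2 fold changes of 0.10 and 0.19, and without knockout replicate 3 these were −0.11 and −0.09.

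**Figure D2:**
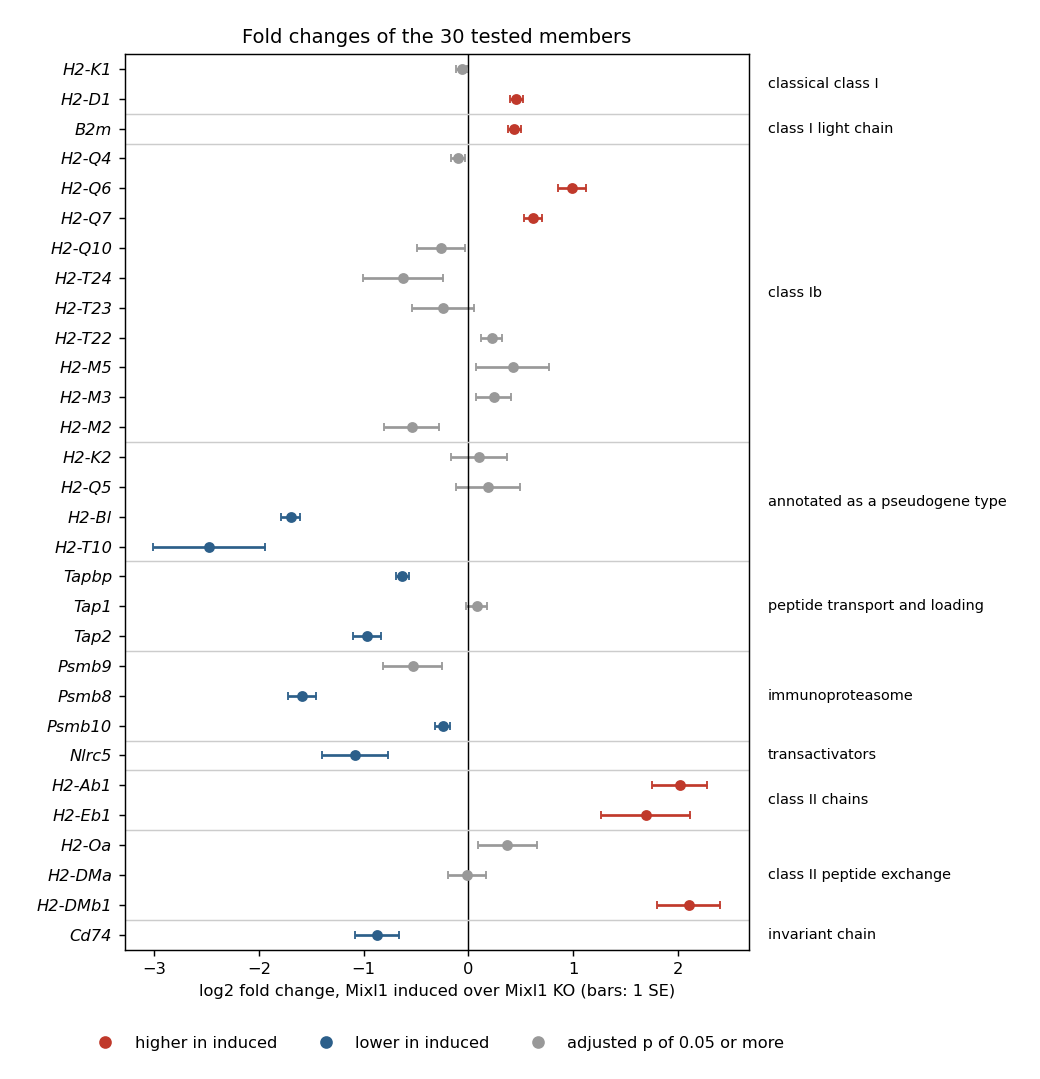
Log2 fold change of induced over knockout libraries for the 30 tested genes, grouped by role, with bars of 1 SE from edgeR's fit. H2-Ab1, H2-Eb1 and H2-DMb1 lie to the right between 1.69 and 2.10, and H2-D1, B2m, H2-Q6 and H2-Q7 between 0.44 and 0.99, while the peptide transport, immunoproteasome and Nlrc5 rows lie left of 0 apart from Tap1 at 0.08.

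Of the 6 members that supply class I peptides 4 were lower, none was higher and 2 did not pass, and over all tested genes 62.6% were called and 31.6% were lower. Tapbp, tapasin, had 135.4, 117.5 and 119.1 CPM in induced libraries and 194.8, 205.2 and 177.1 CPM in knockout libraries. Tap2, a chain of the peptide transporter, had 9.74, 7.83 and 7.32 CPM in induced libraries and 17.6, 18.4 and 12.9 CPM in knockout libraries. For both genes the groups were apart, with log2 fold changes of −0.63 for Tapbp (SE 0.060, adjusted p = 3.51e-08) and −0.97 for Tap2 (SE 0.135, adjusted p = 6.37e-06) by edgeR's quasi-likelihood test. Tap1, the chain that pairs with Tap2, had 30.9, 33.3 and 31.2 CPM in induced libraries and 34.9, 31.1 and 24.3 CPM in knockout libraries. These ranges overlapped (log2 fold change 0.08, 95% interval −0.12 to 0.28, adjusted p = 0.538 by edgeR's quasi-likelihood test), and without knockout replicate 3 the value was −0.06.

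Psmb8, Psmb9 and Psmb10 are the catalytic subunits of the immunoproteasome and take the places of Psmb5, Psmb6 and Psmb7 in the constitutive proteasome. Psmb8 had 11.9, 7.89 and 10.59 CPM in induced libraries and 34.1, 31.9 and 25.8 CPM in knockout libraries. The highest induced library lay well below the lowest knockout library, and Psmb8 fell by 1.59 on the log2 scale (SE 0.135, adjusted p = 2.28e-07 by edgeR's quasi-likelihood test). Psmb10 had 43.5, 37.4 and 42.1 CPM in induced libraries and 54.0, 45.6 and 46.5 CPM in knockout libraries. A small gap separated the groups (log2 fold change −0.25, SE 0.072, adjusted p = 0.00525 by edgeR's quasi-likelihood test), and without induced replicate 2 the adjusted p was 0.0526. Psmb9 was the scarcest, with 2.41, 1.20 and 1.75 CPM in induced libraries and 3.76, 2.04 and 2.00 CPM in knockout libraries. The groups overlapped (log2 fold change −0.53, adjusted p = 0.109 by edgeR's quasi-likelihood test). It passed without induced replicate 1 (−0.82, adjusted p = 0.0289) or without knockout replicate 3 (−0.69, adjusted p = 0.0376), while without knockout replicate 1 the value was −0.17.

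None of the constitutive partners passed, at log2 fold changes of 0.11 for Psmb5, 0.06 for Psmb6 and −0.04 for Psmb7, and without knockout replicate 3 Psmb5 did (0.20, adjusted p = 0.00897 by edgeR's quasi-likelihood test). Per kilobase, Psmb8 made up 4.88%, 3.08% and 4.003% of the sum of Psmb8 and Psmb5 in induced libraries and 13.2%, 13.7% and 9.24% in knockout libraries. Psmb10 made up 27.8% ± 1.35 of its pair with Psmb7 in induced libraries and 30.9% ± 1.54 in knockout libraries (SD, n = 3 each). Psmb9 made up 0.330% ± 0.109 of its pair with Psmb6 in induced libraries and 0.496% ± 0.175 in knockout libraries (SD, n = 3 each). Lengths here were the union of all annotated exons of a gene, 3381 bases for Psmb8 and 3660 for Psmb9. The size of each share depends on this choice of length. The induced and knockout shares were apart for Psmb8 and Psmb10 and overlapped for Psmb9. Exact two-sided permutation tests gave p = 0.1 for Psmb8, 0.1 for Psmb10 and 0.3 for Psmb9, with values adjusted over the 3 pairs of 0.15, 0.15 and 0.3, and 3 against 3 libraries cannot go below 0.1. The immunoproteasome subunits together made up 8.90% ± 0.748 of the 6 catalytic genes in induced and 12.3% ± 1.04 in knockout libraries (SD, n = 3 each).

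**Figure D3:**
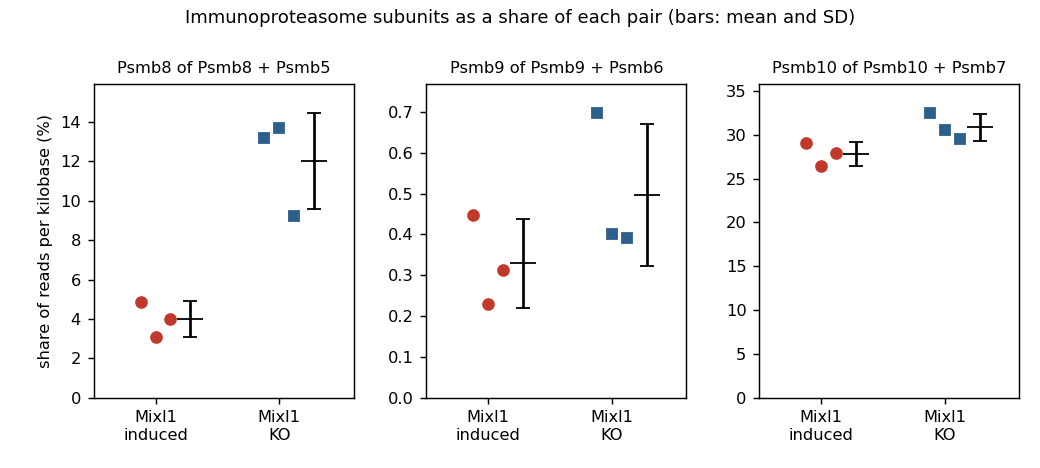
Share of each inducible catalytic subunit in the reads per kilobase of its pair, in percent, with 1 point a library and the mean and SD beside the points. The Psmb8 share averaged 3.99% in induced libraries and 12.03% in knockout libraries, and the Psmb9 share lay under 1% in all 6 libraries.

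The class I transactivator Nlrc5 was scarce and lower in induced libraries. It had 9, 9 and 16 reads in induced libraries and 28, 20 and 26 reads in knockout libraries. The groups were apart, with a log2 fold change of −1.08 (SE 0.32, adjusted p = 0.00538 by edgeR's quasi-likelihood test). Ciita, the class II transactivator, had 0 reads in induced libraries and 1 read in knockout libraries, and was not tested.

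Class II genes were at a low level in all libraries. Of the 6 tested members of the class II route 3 were higher in induced libraries and 1, Cd74, was lower. The number called was near the share over all tested genes, of which 62.6% were called, 31% higher and 31.6% lower. H2-Ab1, the beta chain of the I-A molecule, had 2.99, 3.66 and 3.33 CPM in induced libraries and 1.024, 0.992 and 0.421 CPM in knockout libraries. H2-Eb1, the beta chain of I-E, had 12, 15 and 15 reads in induced libraries and 5, 3 and 5 reads in knockout libraries. H2-DMb1, a beta chain of the exchange factor H2-DM, had 2.07, 2.40 and 1.64 CPM in induced libraries and 0.585, 0.386 and 0.421 CPM in knockout libraries. For these genes every induced library lay above every knockout library. Their log2 fold changes were 2.02 for H2-Ab1 (SE 0.26, adjusted p = 6.09e-07), 1.69 for H2-Eb1 (SE 0.43, adjusted p = 0.00151) and 2.10 for H2-DMb1 (SE 0.30, adjusted p = 2.65e-06) by edgeR's quasi-likelihood test.

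H2-Aa, the alpha chain that pairs with H2-Ab1, had 6 reads over the induced and 4 over the knockout libraries and was not tested (induced over knockout ratio 1.53, 95% counting interval 0.363 to 7.37). H2-DMa, the alpha chain of H2-DM, averaged 2.82 CPM in induced and 2.85 CPM in knockout libraries (log2 fold change −0.01, 95% interval −0.37 to 0.35). H2-Oa, part of the modulator H2-O, averaged 1.48 CPM in induced and 1.148 CPM in knockout libraries (log2 fold change 0.37, 95% interval −0.18 to 0.92), while its partner H2-Ob had 0 reads in induced and 1 read in knockout libraries. H2-Eb2 had 7 reads over the induced and 13 over the knockout libraries. H2-DMb2, which shares sequence with H2-DMb1 (22.7% of the 50-base fragments of H2-DMb1), had 1 read in induced and 0 in knockout libraries.

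The invariant chain Cd74 went the other way. It had 36, 32 and 25 reads in induced libraries and 70, 58 and 46 reads in knockout libraries, and the groups did not overlap. Its log2 fold change was −0.87 (SE 0.21, adjusted p = 0.00124 by edgeR's quasi-likelihood test).

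Of the untested genes, H2-Q1 is singled out here after its values were seen. It had 0, 0 and 1 reads in induced libraries and 8, 5 and 7 reads in knockout libraries, a knockout over induced ratio of 19.6 with a 95% counting interval of 3.14 to 813. In the authors' deposited table its log2 fold change was −4.17 with an adjusted p of 0.0101. H2-Q2 had 14 reads over the induced and 15 over the knockout libraries. H2-M1 had 0 reads in induced and 3 in knockout libraries, H2-M9 had 0 in induced and 1 in knockout libraries, and H2-M10.6 had 1 in induced and 0 in knockout libraries. H2-Ke6, which keeps the prefix but has no role in antigen presentation, had 5 reads in induced and 2 in knockout libraries. Gm20427 overlaps H2-Ke6 on the same strand and shares 70.5% of its 50-base fragments, so this count may be too low. H2-Pa, H2-Pb, H2-Q3, H2-T3, H2-M10.1, H2-M10.2, H2-M10.3, H2-M10.4, H2-M10.5 and H2-M11 had no read in any library.

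Along chromosome 17 the members stood among genes of which more were higher than lower. Between H2-K2 and H2-M2 (chr17:33974659-37483552, GRCm38) 87 other genes were tested, of which 52 were higher and 10 lower (71.3% called), with a median log2 fold change of 0.27. The 640 other tested genes of the chromosome, outside this interval and no members, had a median of −0.19, with 136 higher and 307 lower (69.2% called). The 26 tested members on chromosome 17 had a median of 0.03, with 6 higher and 5 lower (42.3% called). Over all tested genes 62.6% were called. The neighbours with the smallest p were Zfp57, a zinc finger protein of imprint maintenance, with a log2 fold change of 1.35, 1110038B12Rik with 0.88, Ddah2 with 0.77 and Pou5f1, a pluripotency factor, with −0.68.

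In the T region, H2-Bl and H2-T10 belonged to a run of 5 consecutive tested genes that were all lower in induced libraries, a run picked after the values were seen. The other genes of the run were H2-T-ps with a log2 fold change of −3.58, BC023719 with −3.91 and Gm10499 with −1.59. BC023719 overlaps H2-T10 on the opposite strand. The tested gene next to the run on the side of H2-Bl was H2-T22, which did not pass.

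**Figure D4:**
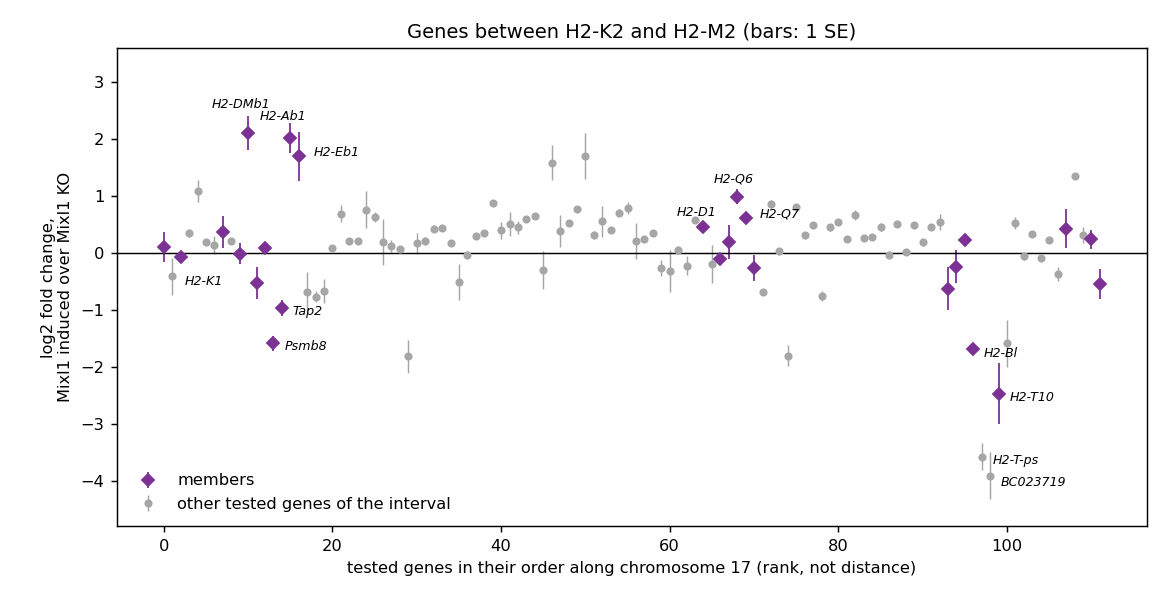
Log2 fold change of the 112 tested genes between H2-K2 and H2-M2 in their order on the chromosome, with purple diamonds for the 25 members, grey circles for the 87 others and bars of 1 SE. H2-DMb1 and H2-Ab1, on the left, are the highest of the 112, and BC023719, H2-T-ps and H2-T10, on the right, are the lowest.

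Other genes of the pathway, outside the 51, were counted by list. Each count stands beside 62.6% of all tested genes called, 31% higher and 31.6% lower. Of 15 tested genes for peptide loading and trimming 10 were higher and 2 lower (median log2 fold change 0.19). The chaperones were among the higher ones, with log2 fold changes of 0.23 for Canx, 0.18 for Calr and 0.31 for Pdia6, as were the translocon gene Sec61a1 (0.48) and the aminopeptidase Lnpep (1.25). The 2 lower genes were Erap1 (−1.07), which trims peptides in the endoplasmic reticulum, and the tapasin relative Tapbpl (−0.62). Of 18 genes for core proteasome subunits, assembly factors and activators 6 were higher and 4 lower (median 0.01), and without induced replicate 3 the higher ones numbered 3. The interferon-inducible activator subunits Psme1 (−0.58) and Psme2 (−0.65) were lower, with the assembly factors Psmg2 (−0.45) and Pomp (−0.16), while the activators Psme4 (0.61) and Psme3 (0.26) were higher.

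Of 11 tested proteases and enzymes of the class II route 7 were lower and 1 higher (median −0.28). The shares over all tested genes were 31.6% lower and 31% higher. Ctss, the protease that trims the invariant chain in antigen-presenting cells, had 7.18, 6.06 and 5.73 CPM in induced libraries and 37.5, 56.5 and 48.5 CPM in knockout libraries. The groups were far apart (log2 fold change −2.90). Ctsb (−0.98), Ctsd (−0.51) and Lamp2 (−0.43) were also lower, and the thiol reductase Ifi30 was higher (0.30).

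Of 22 tested transcription factors and cofactors of MHC promoters 9 were lower and 2 higher (median −0.08). Fewer of them were called than over all tested genes, of which 62.6% were called, 31.6% lower and 31% higher. Irf1, which binds the interferon-response element of class I promoters, had 51.4, 59.7 and 56.1 CPM in induced libraries and 129.9, 139.98 and 156 CPM in knockout libraries. All induced libraries lay far below, with a log2 fold change of −1.35 (SE 0.067, adjusted p = 6.12e-12 by edgeR's quasi-likelihood test). Rfx5, a subunit of the RFX complex on the X box, was lower (−0.52), as was Atf1 (−0.35), while Irf3 (0.30) and Nfyc (0.16) were higher.

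Of 15 interferon receptor and signalling genes, a list that also holds Irf1, 9 were lower and 3 higher (median −0.23). For this list and the next 2, the shares over all tested genes were 31.6% lower and 31% higher. Ifngr2 (−0.70), Ifnar1 (−0.29) and Jak1 (−0.27) were lower, while Ifngr1 (0.40), Ifnar2 (0.42) and Socs3 (0.27) were higher. Of 29 tested interferon-stimulated genes 26 were lower and none was higher (median −1.85), with log2 fold changes of −1.16 for Irgm1, −5.19 for Iigp1, −2.14 for Gbp3 and −2.58 for Ifi27. Of 10 tested ligands of natural killer cell receptors and class I-like molecules 6 were lower, among them H60b (−1.79), Raet1d (−1.08), Raet1e (−1.17) and Fcgrt (−1.26), and 1, the lipid-presenting Cd1d1, was higher (0.47). The Raet1 genes have close copies, so their counts are uncertain.

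**Figure D5:**
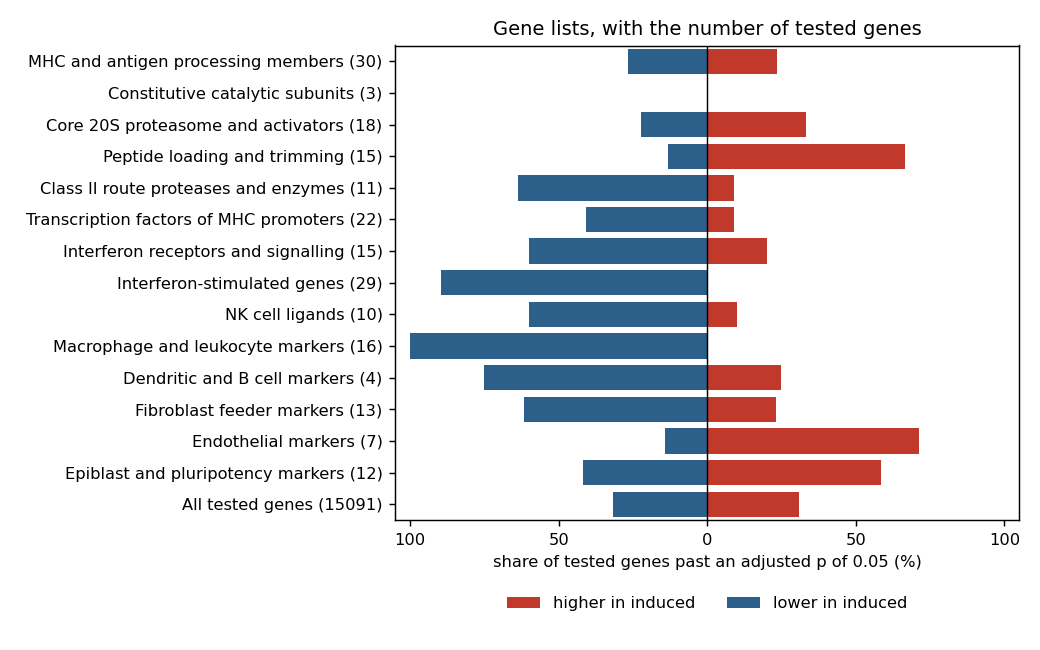
Share of the tested genes of each list past an adjusted p of 0.05, in percent, with genes higher in induced libraries to the right and genes lower in them to the left, and the number tested in parentheses. The MHC and antigen processing genes divide almost evenly, with 7 higher and 8 lower of 30, the peptide loading list leans to the right and the interferon-stimulated list lies to the left.

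Markers of cells that carry class II molecules were measured beside these genes. Their counts stand beside 31.6% of all tested genes lower and 31% higher. Of 18 macrophage and leukocyte markers 16 were tested and all 16 were lower in induced libraries (median −2.32), and the summed level of the list ranged from 56.7 to 68.3 CPM in induced libraries and from 355 to 509.9 CPM in knockout libraries. Those with the smallest p were Tyrobp (−3.01), C1qc (−2.31), Trem2 (−2.82) and Adgre1 (−2.65). None of the listed markers was at 0 in all libraries. This stands beside lower Cd74, Ctss, Psmb8 and Nlrc5, and beside higher H2-Ab1, H2-Eb1 and H2-DMb1, and its part in those results was not tested. Of 13 dendritic and B cell markers 4 were tested, with Itgax (−2.20), Batf3 (−1.51) and Bcl11a (−0.68) lower and Zbtb46 higher (0.68). The summed level of that list was 30.6 to 32.4 CPM in induced and 39.5 to 44.6 CPM in knockout libraries, and the B cell marker Ms4a1 had 0 reads in induced libraries and 1 read in knockout libraries.

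Fibroblasts of the kind used as feeders also express class I genes. The lists below again stand beside 31.6% of all tested genes lower and 31% higher. Of 13 tested fibroblast markers 8 were lower and 3 higher (median −0.74), and the summed level was 518.2 to 704.2 CPM in induced and 754.7 to 943.6 CPM in knockout libraries. Dcn (−2.64), Pdgfrb (−2.27), Loxl1 (−1.44) and Fbln2 (−1.08) were lower, and Col1a2 (1.09), Thy1 (0.93) and Lum (0.70) higher. Of 7 tested endothelial markers 5 were higher, among them Kdr (3.78), Tek (3.27), Cldn5 (1.26) and Pecam1 (1.18), and 1, Cdh5 (−0.95), was lower (median 1.18). Their summed level was 49.5 to 56.6 CPM in induced and 10.25 to 11.001 CPM in knockout libraries. Of 12 epiblast and pluripotency markers, which check the labelled cell type, none was absent, 7 were higher and 5 lower (median 0.50). Sox2 (1.86) and Lin28a (0.87) were higher, and Nanog (−1.59), L1td1 (−1.89) and Pou5f1 (−0.68) lower. The other called genes of this list are not named. The part of these cell types in the MHC values was not tested.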

How the data were processed

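Poly(A) RNA was sequenced from 6 samples, 3 Mixl1 induced and 3 Mixl1 KO, grouped by title. For each library the authors deposited raw, whole-number read counts by gene. The submitters' processing notes name bcl2fastq, STAR, DESeq2 and mm10, without versions or an annotation release. Of the count columns deposited, the one in which the first read lies antisense to the gene was taken, since it held 96.2% to 96.3% of stranded reads. Rows naming no gene took 15.1% to 17.6% of reads and were left out. Multimapped reads (6.79% to 6.97% in induced, 7.43% to 7.66% in knockout libraries) are not in gene counts, which lowers genes with near-identical copies. The authors also deposited a DESeq2 table of log2 fold changes and adjusted p-values, and for all 30 members tested here its sign and its side of 0.05 matched.

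Names, positions and exon lengths came from GENCODE M21 (GRCm38), which matched 55230 of 55471 identifiers. The length of a gene was the union of all its annotated exons. Counts were fitted in edgeR 4.0.16 (R 4.3.3) with filterByExpr (minimum count 10), TMM factors and robust quasi-likelihood dispersion, group as the only term, two-sided, with Benjamini-Hochberg adjustment over all tested genes. The fit was tested on simulated counts with few changed genes, balanced in direction, and a common dispersion. That check does not cover a comparison such as this, in which most genes were called. An SE is the log2 fold change over the square root of F, and 95% intervals are 1.96 SE either side. These intervals are approximate and can be narrower than the test implies. CPM uses TMM-scaled library sizes. Intervals on reads cover counting error only. Alternatives used DESeq2 1.42.0, limma 3.58.1 and other settings. Gm20496 overlaps Psmb8 and Tap2 on the opposite strand, so the unstranded column keeps 51.5% and 53.0% of their reads. The exact 50-base fragments are a yardstick, since no read length is stated in the labels. Replicates within a group differed by more than sampling noise (chi-square per degree of freedom 2.16 to 4.81). Replicate numbers were not treated as pairs. All members are accounted for. Of each gene list, up to 4 called genes with the smallest p and those against the majority are named, with some others. In the epiblast and pluripotency list not every gene against the majority is named. The members follow a rule on symbols alone, but this group of genes and the lists were picked with earlier results of these data known. Promoters were in RefSeq's table for 37 members.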

Additional observations from a re-analysis of the deposited data

How the results depend on the processing

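The number of members called, 15 of 30, was 13 to 17 under DESeq2 size factors, upper-quartile factors, no filter, 1 CPM in 3 libraries, unstranded counts, an adjusted p of 0.01, DESeq2, limma-voom and each left-out library. Only the edgeR test against a 2-fold change moved it past 1.5 times: 5 members were then called, 2 higher (H2-Ab1, H2-DMb1) and 3 lower (Psmb8, H2-Bl, H2-T10), with 1628 of all genes against 9450 and 53 genes of the other lists against 133. Of the 15 called members, 14 passed in every alternative that tested them apart from that one; the exception was Psmb10. H2-Eb1 and H2-T10 were below the filter at 1 CPM, and H2-T10 also without knockout replicate 3. Without the filter 41 members were tested and 16 called, against 35% of all tested genes. At 1 CPM 27 were tested and 13 called, against 65%. In the 2-fold test 5 of 30 were called, against 10.8%. The members' share was below that of all tested genes in the main test and at 1 CPM. It was above that share without the filter and in the 2-fold test. Of 476 single-gene values, 450 kept direction and call, 11 lost a call, 9 gained one and 6 turned sign. The 6 were all in genes that did not pass and all from leaving out 1 library: the log2 fold change ranged from −0.11 to 0.25 for H2-K2, from −0.072 to 0.059 for H2-DMa, from −0.058 to 0.19 for Tap1, from −0.094 to 0.50 for H2-Q5 and from −0.53 to 0.10 for H2-T23. The immunoproteasome share, 3.44 percentage points lower in induced libraries (a difference of −3.44), was −4.37 as a share of raw reads without division by length, and −3.98 to −2.94 with 1 library left out. The H2-K1 to H2-D1 ratio differed by −0.51, and by −0.58 to −0.44 with 1 library left out, an alternative chosen after seeing the data. In the core proteasome list, higher genes numbered 3 to 6 with 1 library left out.

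Same-numbered libraries did not deviate together (correlations 0.00697, 0.0779 and 0.0671, and not every sample correlated best with its own number), so the numbers are shared names only. With a replicate block 17 members and 9647 genes were called, and Psmb9 (adjusted p = 0.0333) and H2-T22 (adjusted p = 0.0470) passed in edgeR. H2-T22 also passed on unstranded counts (adjusted p = 0.0443). Depth limits the 21 untested members and the 9 tested ones under 40 reads in every library, of which H2-Eb1, H2-T10 and Nlrc5 were called and H2-K2, H2-Oa, H2-Q5, H2-T24, H2-M5 and H2-M2 were not.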
